A study of Homo sapiens with 6 samples.

Results

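The 10 genes described here encode actin-binding proteins of the contractile apparatus: the tropomyosins TPM1 to TPM4, the calponins CNN1, CNN2 and CNN3, the transgelins TAGLN and TAGLN2, and the caldesmon CALD1. They were taken by symbol from a table of 16376 genes, and all 10 were found there. The set was selected on these FPKM values, that is on how the levels of its genes differed between the groups below. They were measured by RNA sequencing in HOS, a human osteosarcoma cell line labelled wild type throughout, in 3 libraries of cells treated with Agrimol B and 3 libraries of control cells. Agrimol B is a phloroglucinol derivative of agrimony plants and was given for 24 h, at a dose that the sources do not state. Control cells are labelled as having no treatment, with no word on a solvent. The labels do not say that replicates came from separate cultures, so a p-value here measures only how these libraries vary, and that variation may be technical.

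Tropomyosins are coiled-coil dimers that lie along the actin filament and set which myosins and which severing proteins can reach it. Calponins, transgelins and caldesmon also bind along actin filaments. Calponins and caldesmon restrain the actin-activated ATPase of myosin, and the transgelins are small relatives of the calponins that bundle and stabilise filaments. Several of these genes are classical markers of smooth muscle and of myofibroblasts, and many are transcribed by SRF with its actin-sensing cofactors, the MRTF proteins.

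Levels are FPKM, that is fragment numbers per unit of transcript length and of mapped fragments, as deposited. In each library 11993 to 12134 genes had at least 1 FPKM. Across tested genes Pearson r was 0.986 to 0.988 within groups and 0.947 to 0.950 between them. The osteosarcoma label was read against 9 osteoblast lineage genes, of which 7 had values and SP7 and IBSP had none. The collagen chain COL1A1 had 293 ± 11.5 FPKM with Agrimol B and 419 ± 13.9 FPKM in control libraries. SPARC had 160.1 ± 20.3 FPKM with Agrimol B and 292 ± 35.3 FPKM in control libraries. RUNX2 was far less abundant, at 6.25 ± 1.68 FPKM with Agrimol B and 5.15 ± 0.377 FPKM in control libraries. Control means were 70.7 FPKM for COL1A2, 16.4 FPKM for ALPL and 3.52 FPKM for SPP1. The osteocalcin gene BGLAP was close to 0 in both groups. Smooth muscle myosin MYH11 and desmin (DES) stayed under 0.2 FPKM in both group means. Only 7 of 14 skeletal muscle markers had values. Of these 7, 5 had means under 1.1 FPKM in both groups, and neither of the 2 tested passed in limma. The list summed to 4.68 to 5.27 FPKM with Agrimol B and 4.10 to 4.91 FPKM in control libraries.

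To show the promoters next to the levels, a set of RefSeq promoters (GRCh38.p14) was used. The 250 bases before each transcript start were searched on both strands for the CArG box, the binding motif of SRF. The set held 19 such windows for 9 of the 10 genes. It had no entry for TAGLN, whose promoter was therefore not searched. An exact CArG box stood in 2 windows, 1 of CNN2 and 1 of TPM4, against 1.16% of all 35116 windows. With at most 1 letter of the box changed, 6 windows of 3 genes (CALD1, CNN2 and TPM4) held it, against 16.8% of all windows. The motif GGAATG, read by TEAD factors, stood in 3 of the 19 windows, those of CALD1 and CNN3, against 11.9% of all windows. TATAAA stood in 1 of the 19, a window of CALD1, against 10.7% of all windows. The stretches below lie outside the exons of GENCODE release 29 and run 5′ to 3′ on the plus strand. They show the gene with the largest fall (CNN1), the 2 genes with an exact box, and 1 start of CALD1 with a box that has 1 letter changed, and capitals mark the box.
CNN1 chr19:11538601-11538716: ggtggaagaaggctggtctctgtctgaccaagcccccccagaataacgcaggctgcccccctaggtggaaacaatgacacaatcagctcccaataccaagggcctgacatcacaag
CNN2 chr19:1026358-1026580: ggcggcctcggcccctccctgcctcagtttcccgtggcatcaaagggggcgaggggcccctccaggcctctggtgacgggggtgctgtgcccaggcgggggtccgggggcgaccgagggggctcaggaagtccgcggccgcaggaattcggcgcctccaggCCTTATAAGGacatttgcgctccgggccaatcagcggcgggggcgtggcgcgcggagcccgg
TPM4 chr19:16067307-16067506: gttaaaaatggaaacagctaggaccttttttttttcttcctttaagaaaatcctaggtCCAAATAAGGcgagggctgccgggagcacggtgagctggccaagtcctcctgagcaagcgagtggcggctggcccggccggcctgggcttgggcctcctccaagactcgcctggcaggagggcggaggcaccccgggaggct
CALD1 chr7:134711249-134711498: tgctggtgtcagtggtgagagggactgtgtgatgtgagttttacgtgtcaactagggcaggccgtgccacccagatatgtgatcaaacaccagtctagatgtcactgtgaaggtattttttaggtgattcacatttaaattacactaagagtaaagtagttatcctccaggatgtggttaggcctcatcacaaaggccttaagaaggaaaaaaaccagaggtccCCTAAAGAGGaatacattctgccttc
The box ends 79 bases before the start in CNN2 and 163 bases before it in TPM4. It is 16 bases before the start shown for CALD1, which is 1 of 4 starts that the promoter set lists for that gene. The CALD1 start shown lies upstream of the span that GENCODE release 29 gives the gene (chr7:134744252-134970728). Whether HOS cells use this start was not tested. The CNN1 window held no such box, exact or with 1 letter changed, in its 250 bases.

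The 10 genes were chosen with the difference between these groups known, so their levels and differences are a description. No p-value is printed for them, and whether each passed the limma threshold is given as description only. With Agrimol B, 8 of the 10 were lower in every library than in any control library, 1 (TPM3) was higher in every library, and 1 (TPM4) overlapped. Among all 12143 genes tested, 26.0% lay wholly below and 36.2% wholly above. In the limma fit over all genes, 8 of the 10 passed adjusted p 0.05 and all 8 were lower, where 52.0% of all tested genes passed, 30.6% higher and 21.4% lower. The median log2 difference of FPKM + 1 was -0.72 over the 10 genes and 0.07 over all tested genes. Of the 8 genes, 4 (CNN1, CALD1, CNN2 and TAGLN) were more than 2-fold lower by the ratio of means, as were 3.06% of all tested genes. Fewer cells of a type and less RNA of these genes per cell cannot be told apart in such libraries.

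**Figure D1:**
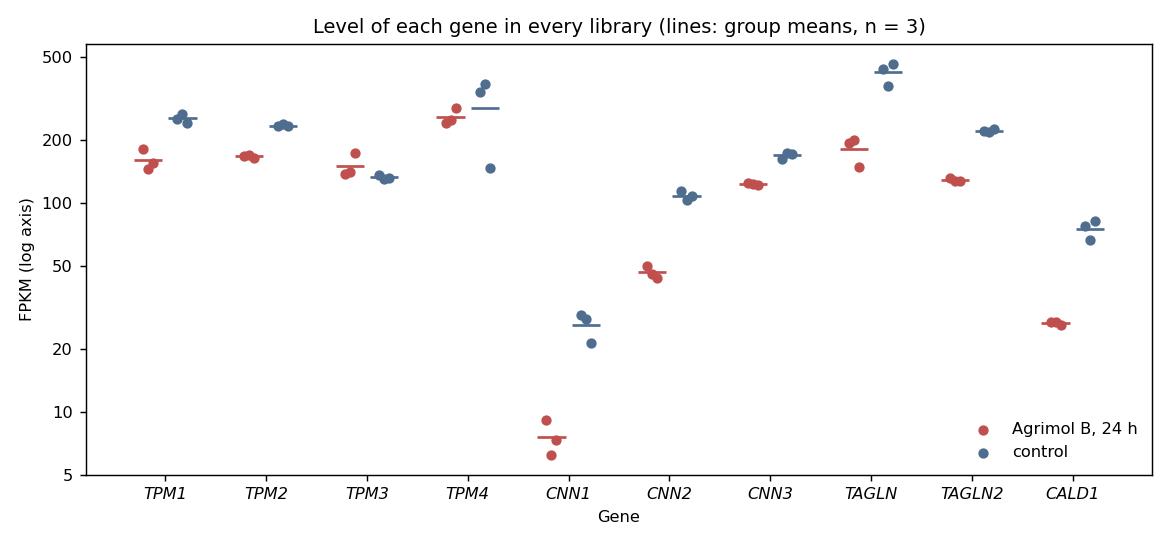
FPKM (log axis) of the 10 genes in the 3 Agrimol B and 3 control libraries, 1 point per library, with lines at the group means. Agrimol B lies wholly below control for 8 genes and, by a narrow margin, wholly above it for TPM3, while control replicate 3 of TPM4 (148 FPKM) lies far below the other control libraries.

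Among the tropomyosins, TPM1 and TPM2 fell and TPM3 and TPM4 did not pass the threshold. TPM1 (chr15:63042632-63071915, plus strand), whose protein is found in muscle and non-muscle filaments, had 182, 146 and 156 FPKM in Agrimol B libraries, against 253, 268 and 242 FPKM in control libraries. All 3 Agrimol B values lay below the lowest control value, and Agrimol B replicate 2 was the lowest. The means were 161 ± 18.4 FPKM with Agrimol B and 255 ± 13.1 FPKM in control libraries (SD, n = 3 each), a 1.58-fold fall with a log2 difference of -0.66 (SE 0.0873). TPM2 (chr9:35681992-35690121, minus strand), the beta-tropomyosin of muscle that fibroblasts also use, had 168, 169.7 and 164 FPKM with Agrimol B, against 233, 238 and 233 FPKM in control libraries. Its replicates were tight, with coefficients of variation of 1.96% with Agrimol B and 1.33% in control libraries, and its fall was 1.40-fold (log2 difference -0.49, SE 0.0320).

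TPM3 (chr1:154155304-154194648, minus strand), whose cytoplasmic forms are present in most cells, had 138, 141 and 174 FPKM in Agrimol B libraries, against 137, 131 and 132 FPKM in control libraries. The groups did not overlap, but the lowest Agrimol B value lay just above the highest control value and Agrimol B replicate 3 alone stood high. The means were 151 ± 20.2 FPKM with Agrimol B and 133 ± 3.17 FPKM in control libraries, and the log2 difference of 0.17 (SE 0.0928) did not pass. Without that library it was 0.07. The same Agrimol B library had the lowest TAGLN value, and it held KRT5 at 10.45 and KRT14 at 5.87 FPKM, basal keratins that stayed at or under 0.745 FPKM in the other 5 libraries. Another keratin, KRT19, had 3.17 FPKM in Agrimol B replicate 2 and 2.68 FPKM in Agrimol B replicate 3, and at most 0.209 FPKM in the other libraries. The part of Agrimol B replicate 3 in the TPM3 and TAGLN values was not tested. GENCODE lists 8 pseudogenes of TPM3, none of which has a row in the table, and reads could be split between them and the gene.

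TPM4 (chr19:16067021-16103005, plus strand), a tropomyosin of non-muscle stress fibres, had 241, 251 and 283.5 FPKM with Agrimol B, against 341, 369 and 148 FPKM in control libraries. Control replicate 3 was below every other library, and control replicates 1 and 2 were above all Agrimol B libraries. The means were 258 ± 22.4 FPKM with Agrimol B and 286 ± 121 FPKM in control libraries, with a log2 difference of -0.04 (SE 0.347). Without control replicate 3 the log2 difference was -0.46 and passed the threshold. TPM4 alone, of 531 genes averaging 100 FPKM or more, had a control replicate 3 value under 50% of both other control values. GENCODE lists 14 protein-coding transcripts of TPM4, and the table gives 1 value for them all.

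The summed tropomyosin level was 728, 707 and 777 FPKM with Agrimol B and 964, 1007 and 754 FPKM in control libraries, so the groups overlapped through control replicate 3. Within that sum the balance of the genes differed. TPM3 made up 20.4 ± 1.80% of it with Agrimol B and 14.9 ± 2.33% in control libraries, while TPM1 made up 21.9 ± 2.67% with Agrimol B and 28.3 ± 3.27% in control libraries. TPM2 made up 22.7 ± 1.51% with Agrimol B and 26.2 ± 3.98% in control libraries, and TPM4 35.0 ± 1.78% with Agrimol B and 30.5 ± 9.51% in control libraries. The TPM4 difference of 4.46 percentage points became -1.02 without control replicate 3, and that of TPM2, -3.52, became -1.23. The differences of TPM1 (-6.46) and TPM3 (5.52) became -4.58 and 6.82. TPM3 stood at 0.758, 0.962 and 1.12 times the level of TPM1 in the Agrimol B libraries, against 0.539, 0.487 and 0.544 times in control libraries. That ratio does not involve TPM4 and was apart between the groups in every library.

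**Figure D2:**
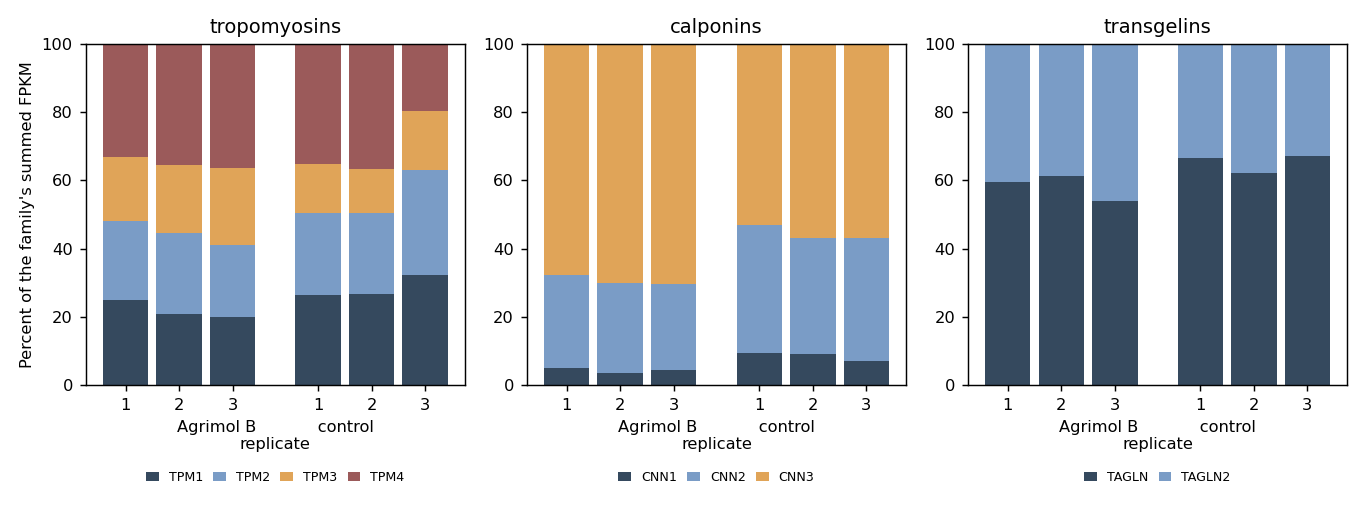
Percent of the summed FPKM of each family held by its genes, with 1 bar per library, Agrimol B at the left and control at the right. CNN3 takes 67.8% to 70.3% of the calponin sum with Agrimol B and 53.2% to 57.0% in control libraries, and control replicate 3 holds only 19.6% TPM4.

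The calponins fell in all 3 genes, by very different amounts. CNN1 (chr19:11538717-11550323, plus strand), the calponin of differentiated smooth muscle, had 9.13, 6.22 and 7.35 FPKM in Agrimol B libraries, against 28.97, 27.7 and 21.4 FPKM in control libraries. The groups were far apart, and control replicate 3 was the lowest of its group. The means were 7.57 ± 1.47 FPKM with Agrimol B and 26.0 ± 4.05 FPKM in control libraries, a 3.44-fold fall (log2 difference -1.66, SE 0.161), the largest of the 10 genes. By absolute log2 difference CNN1 ranked 87th among all 12143 genes tested.

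CNN2 (chr19:1026581-1039068, plus strand), a calponin of fibroblasts, blood cells and smooth muscle, had 49.9, 45.9 and 44.0 FPKM with Agrimol B, against 114, 104 and 108 FPKM in control libraries. No Agrimol B library reached 50% of its control mean, and the fall was 2.33-fold (log2 difference -1.20, SE 0.0610). CNN3 (chr1:94896949-94927278, minus strand), the acidic calponin of non-muscle cells and brain, had 124, 123 and 122 FPKM with Agrimol B, against 162, 173 and 172 FPKM in control libraries. Its fall of 1.37-fold (log2 difference -0.45, SE 0.0383) was the smallest of the 8, with a coefficient of variation of 1.17% in the Agrimol B group.

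CNN3 made up more of the calponin sum with Agrimol B: 69.5 ± 1.41% with Agrimol B and 55.7 ± 2.14% in control libraries. The share of CNN2 was 26.3 ± 0.890% with Agrimol B and 35.7 ± 1.62% in control libraries, and that of CNN1 4.26 ± 0.711% with Agrimol B and 8.57 ± 1.28% in control libraries. CNN2 stood at 0.379 ± 0.0203 times the level of CNN3 with Agrimol B and 0.643 ± 0.0520 times in control libraries. GENCODE lists 11 pseudogenes of CNN2 and 1 of CNN3, none of them with a row in the table, which leaves the level of CNN2 uncertain to the extent that reads were shared.

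Both transgelins fell. TAGLN (chr11:117199321-117204782, plus strand), an early marker of the smooth muscle lineage, had 194, 201 and 149 FPKM in Agrimol B libraries, against 438, 362 and 465 FPKM in control libraries. The groups were far apart, and Agrimol B replicate 3 was the lowest of all (coefficients of variation 15.6% with Agrimol B and 12.7% in control libraries). Its means were 181 ± 28.2 FPKM with Agrimol B and 422 ± 53.7 FPKM in control libraries, a 2.33-fold fall (log2 difference -1.22, SE 0.144). TAGLN overlaps PCSK7, a protease gene on the opposite strand, which had 16.8 ± 1.18 FPKM with Agrimol B and 13.8 ± 2.08 FPKM in control libraries, a log2 difference of 0.27 (adjusted p = 0.0908 in limma). The library kit keeps strand, but the sources do not say whether the counting used it.

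TAGLN2 (chr1:159918107-159925732, minus strand), the transgelin of non-muscle cells, had 132, 127 and 127 FPKM with Agrimol B, against 220.05, 219 and 227 FPKM in control libraries. The fall was 1.72-fold (log2 difference -0.78, SE 0.0346), with coefficients of variation of 2.22% with Agrimol B and 2.01% in control libraries. TAGLN stood at 1.46, 1.58 and 1.17 times the level of TAGLN2 in the Agrimol B libraries, against 1.99, 1.65 and 2.05 times in control libraries. The groups did not overlap in this ratio, with the second library of each group close together.

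CALD1 (chr7:134744252-134970728, plus strand), caldesmon, whose long form marks smooth muscle and whose short forms occur in other cells, had 27.1, 27.0 and 26.2 FPKM in Agrimol B libraries, against 77.9, 66.5 and 82.0 FPKM in control libraries. The Agrimol B libraries were nearly identical, and control replicate 2 was the lowest of its group. The fall was 2.82-fold (log2 difference -1.46, SE 0.0810), the second largest of the 10. CALD1 stood at 0.160 ± 0.00104 times the level of TPM2 with Agrimol B and at 0.322 ± 0.0383 times in control libraries. The table does not separate the long and short forms.

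**Figure D3:**
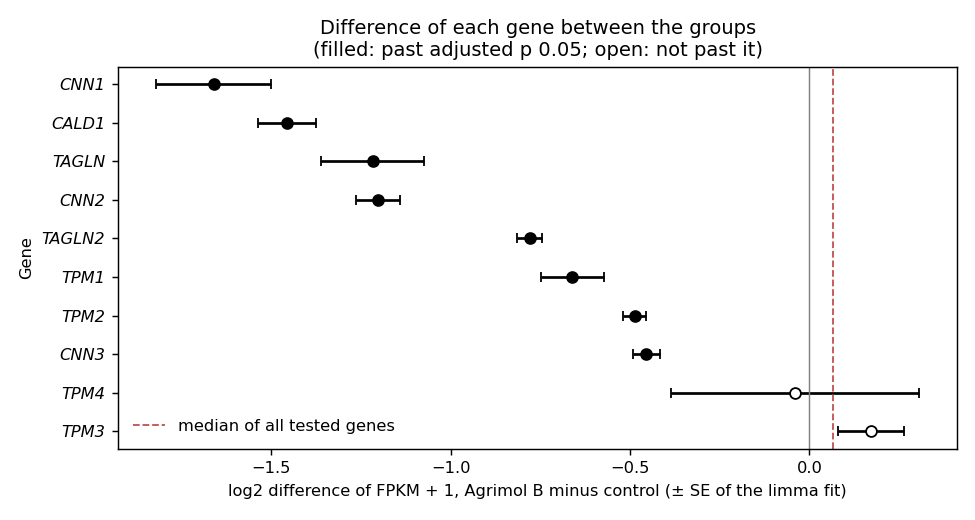
Log2 difference of FPKM + 1 (Agrimol B minus control) with the SE of the limma fit for the 10 genes, filled where the gene passed adjusted p 0.05. From CNN1 (-1.66) to CNN3 (-0.45), 8 genes lie left of 0, and TPM4 has the widest error (SE 0.347).

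In order of level, TPM4 came first in Agrimol B libraries, followed by TAGLN, TPM2, TPM1 and TPM3, of which each overlapped the next in its library values. TAGLN2, CNN3, CNN2, CALD1 and CNN1 followed without overlap. In control libraries the order was TAGLN, TPM4, TPM1, TPM2, TAGLN2, CNN3, TPM3, CNN2, CALD1 and CNN1, and of neighbours in that order TAGLN overlapped TPM4 and TPM4 overlapped TPM1. The wide range of TPM4 there, from 148 to 369 FPKM, also took in the values of TPM2, TAGLN2 and CNN3. TPM3 was thus below TAGLN2 and CNN3 in control libraries and above both with Agrimol B. Together the 10 genes summed to 1265, 1238 and 1252 FPKM with Agrimol B and 2004.5, 1958 and 1829.8 FPKM in control libraries. This was 0.354 ± 0.00497% of the FPKM total with Agrimol B and 0.539 ± 0.0277% of it in control libraries.

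The transcription factors that drive such genes were examined next. SRF itself had 24.1, 22.9 and 23.6 FPKM with Agrimol B, against 34.1, 34.4 and 33.6 FPKM in control libraries, a 1.45-fold fall (adjusted p = 0.000197, limma). ELK1 and ELK4, cofactors of SRF at growth-factor genes that compete with the MRTF proteins, rose 1.27-fold and 1.36-fold (adjusted p = 0.00827 and 0.000834, limma). Of 6 tested genes in this list 2 fell and 2 rose, so 66.7% passed, against 52.0% of all tested genes. The other fall was that of MRTFA, named after its values were seen (log2 difference -0.22, adjusted p = 0.0367, limma). The number of falls was 1 with the replicate block and without Agrimol B replicate 1 or 3 or control replicate 1 or 2. MRTFB had 5.70 ± 0.955 FPKM with Agrimol B and 5.82 ± 1.60 FPKM in control libraries, and myocardin (MYOCD) was close to 0 in both groups.

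Of 25 tested SRF and MRTF targets outside the member families, most of them cytoskeletal, 15 fell and 2 rose. Their median log2 difference was -0.58. Of 12143 tested genes, 21.4% fell and 30.6% rose. The smooth muscle actins ACTA2 and ACTG2 fell most, to 4.76 ± 0.298 and 44.6 ± 4.25 FPKM with Agrimol B, against 99.3 ± 2.54 and 171 ± 2.82 FPKM in control libraries (adjusted p = 2.82e-06 and 2.09e-05, limma). The regulatory light chain MYL9 had 140.3 ± 12.9 FPKM with Agrimol B and 453.5 ± 6.96 FPKM in control libraries (adjusted p = 2.82e-05, limma). Actins share sequence with one another, so their separate values are uncertain.

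**Figure D4:**
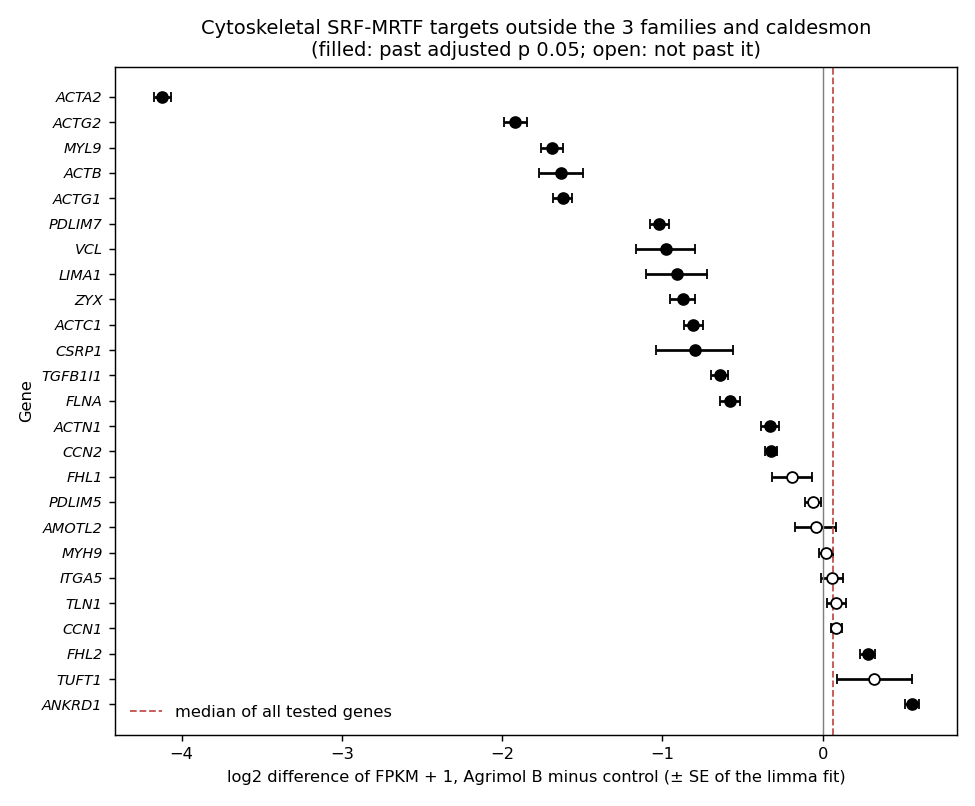
Log2 difference of FPKM + 1 (Agrimol B minus control) for 25 SRF and MRTF targets outside the families described, most of them cytoskeletal. Bars give the SE of the limma fit, and points are filled where the gene passed adjusted p 0.05. Of the 25 genes, 15 lie lower and 2, FHL2 (0.28) and ANKRD1 (0.56), lie higher past the threshold.

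Other smooth muscle contractile genes were lower in 6 of 8 tested cases, and the other 2 did not pass (median log2 difference -0.93). Among all tested genes 21.4% were lower. The smooth muscle list shares ACTA2, ACTG2, MYL9 and CSRP1 with the previous one. The myosin light chain kinase MYLK did not pass, at 9.88 ± 1.37 FPKM with Agrimol B and 11.3 ± 2.01 FPKM in control libraries. Of 6 tested myosin II chains 3 fell and the other 3 did not pass, a share of 50% near that of all tested genes (52.0%). Those that fell were MYL9, the essential light chain MYL6, at 167 ± 4.05 FPKM with Agrimol B and 353 ± 11.8 FPKM in control libraries (adjusted p = 2.04e-05, limma), and the non-muscle heavy chain MYH10, at 77.5 ± 5.62 FPKM with Agrimol B and 132 ± 2.06 FPKM in control libraries (adjusted p = 0.000182, limma). The heavy chain MYH9 had 347 ± 16.6 FPKM with Agrimol B and 342 ± 8.33 FPKM in control libraries.

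Tropomodulins cap the slow-growing end of tropomyosin-coated filaments. Of 2 tested genes, 0 passed in limma, where 52.0% of all tested genes passed. TMOD2 had 3.43 ± 0.193 FPKM with Agrimol B and 2.87 ± 0.314 FPKM in control libraries (adjusted p = 0.0814, limma). TMOD3 had 19.8 ± 2.21 FPKM with Agrimol B and 20.1 ± 0.412 FPKM in control libraries. Below the filter and so not tested, the leiomodin gene LMOD1 had 0.107, 0.181 and 0.220 FPKM with Agrimol B, against 1.33, 1.42 and 1.31 FPKM in control libraries, and TMOD1 had 0.625 ± 0.0542 FPKM with Agrimol B and 0.920 ± 0.106 FPKM in control libraries. Both were lower in every Agrimol B library than in any control library. Among tested genes, which do not include LMOD1 and TMOD1, 26.0% lay wholly below in this way. TMOD4 had 0.242 ± 0.184 FPKM with Agrimol B and 0.228 ± 0.183 FPKM in control libraries. Troponins sit on tropomyosin in striated muscle, and of 4 tested genes 2 fell and 1 rose, where 21.4% of all tested genes fell and 30.6% rose. The cardiac troponin T gene TNNT2 had 6.62, 3.90 and 4.76 FPKM with Agrimol B, against 20.6, 20.6 and 23.5 FPKM in control libraries (adjusted p = 0.000273, limma). TNNC1, encoding the troponin C of slow and cardiac muscle, averaged 5.58 ± 0.451 FPKM with Agrimol B and 21.3 ± 1.19 FPKM in control libraries (adjusted p = 2.82e-05, limma). The slow skeletal gene TNNT1 rose to 25.6 ± 0.367 FPKM with Agrimol B, against 21.9 ± 0.626 FPKM in control libraries (adjusted p = 0.00599, limma).

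Proteins that sever, depolymerise, bundle or branch actin filaments fell in 8 of 12 tested genes, with 4 that did not pass. Several of them compete with tropomyosin for the filament. The median log2 difference was -0.41, and 21.4% of all tested genes fell. The bundling protein fascin (FSCN1) had 69.3 ± 4.47 FPKM with Agrimol B and 109 ± 4.92 FPKM in control libraries (adjusted p = 0.000374, limma). Gelsolin (GSN), which severs filaments, had 12.8 ± 0.650 FPKM with Agrimol B and 20.1 ± 0.195 FPKM in control libraries (adjusted p = 0.000233, limma). WDR1, which assists cofilin, had 63.2 ± 5.82 FPKM with Agrimol B and 89.96 ± 3.38 FPKM in control libraries (adjusted p = 0.00192, limma). Cofilin itself (CFL1) did not pass, with 429, 441 and 619.8 FPKM in Agrimol B libraries, against 647, 583 and 588 FPKM in control libraries. Its high value lay in the Agrimol B library in which TPM3 was also highest.

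Other proteins with a calponin homology domain, a fold that calponins and transgelins share, passed in 57.1% of 42 tested genes, near the 52.0% of all tested genes. Of these, 12 fell and 12 rose, and the median log2 difference was 0.01. GAS2L1, which links actin to microtubules, had 3.48 ± 0.340 FPKM with Agrimol B and 11.3 ± 0.977 FPKM in control libraries (adjusted p = 8.45e-05, limma). The muscle filamin FLNC rose to 129 ± 5.12 FPKM with Agrimol B, against 64.4 ± 1.62 FPKM in control libraries (adjusted p = 3.52e-05, limma). The nuclear envelope protein SYNE1 rose to 9.47 ± 0.591 FPKM with Agrimol B, against 3.22 ± 0.714 FPKM in control libraries (adjusted p = 0.000507, limma).

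The next list held kinases, phosphatases and GTPases that regulate actin filaments, myosin or caldesmon, directly or through other proteins. Of 21 tested genes in it, 6 fell and 5 rose, a share of 52.4% near that of all tested genes (52.0%). The small GTPase gene RHOB rose to 68.1 ± 2.60 FPKM with Agrimol B, against 36.4 ± 0.160 FPKM in control libraries (adjusted p = 4.2e-05, limma). The kinase gene CDC42BPB rose to 48.2 ± 2.00 FPKM with Agrimol B, against 33.4 ± 0.524 FPKM in control libraries (adjusted p = 0.000283, limma). CDK1, the mitotic kinase that phosphorylates caldesmon, fell to 36.4 ± 2.53 FPKM with Agrimol B, against 54.0 ± 2.98 FPKM in control libraries (adjusted p = 0.00101, limma).

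Tropomyosin and caldesmon transcripts are spliced differently between tissues, which these gene-level values do not resolve. Of 12 tested splicing regulators 5 fell and 2 rose, a share of 58.3% near that of all tested genes (52.0%). MBNL1 fell to 23.8 ± 0.492 FPKM with Agrimol B, against 34.1 ± 1.07 FPKM in control libraries (adjusted p = 0.000273, limma). PTBP3 fell to 14.5 ± 1.19 FPKM with Agrimol B, against 22.05 ± 3.42 FPKM in control libraries (adjusted p = 0.00944, limma). The epithelial regulator ESRP1 was low in both groups, at 1.89 ± 0.0454 FPKM with Agrimol B and 0.774 ± 0.154 FPKM in control libraries (adjusted p = 0.00083, limma). PTBP1, the most abundant of the list, did not pass, at 219 ± 5.39 FPKM with Agrimol B and 230.5 ± 2.79 FPKM in control libraries.

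Markers of other cell types were measured beside these genes, and their part in the results was not tested. Of 6 tested osteoblast lineage genes 4 fell and 1 rose, where 21.4% of all tested genes fell and 30.6% rose. The osteoblast list summed to 468 to 527 FPKM with Agrimol B and 759 to 837 FPKM in control libraries. Among its genes COL1A2 had 25.9 ± 2.04 FPKM with Agrimol B and 70.7 ± 3.13 FPKM in control libraries. ALPL had 7.66 ± 1.04 FPKM with Agrimol B and 16.4 ± 0.517 FPKM in control libraries. SPP1, the gene that rose, had 7.67 ± 1.17 FPKM with Agrimol B and 3.52 ± 0.189 FPKM in control libraries. Of 6 tested epithelial genes 2 fell, KRT8 and KRT18, and 4 did not pass, so 33.3% passed, against 52.0% of all tested genes. The epithelial list summed to 309 to 325 FPKM with Agrimol B and 531 to 592 FPKM in control libraries. Most of this sum was KRT8 and KRT18, so it does not describe the list as a set. KRT8 averaged 135 FPKM with Agrimol B and 346 FPKM in control libraries, and KRT18 161 and 209 FPKM. The 4 that did not pass (KRT5, KRT14, KRT19 and EPCAM) had positive log2 differences, the smallest 0.02 for EPCAM. Over the 6 tested genes the median log2 difference was 0.35. KRT18 fell with an adjusted p of 0.0356 in limma, and its adjusted p ran to 0.101 over the alternatives, with the call lost when any library except Agrimol B replicate 1 was left out. The endothelial list summed to at most 1.31 FPKM with Agrimol B and 3.94 FPKM in control libraries, with TEK lower as its 1 tested gene. The blood cell list summed to at most 0.904 FPKM with Agrimol B and 1.96 FPKM in control libraries, with CD14 lower as its 1 tested gene and PTPRC at 0 in all control libraries.

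Genes with the most similar profile were sought for each of the 10 by Pearson r of log2(FPKM + 1) over the 6 libraries, which share the difference between the groups. For CNN1 these were PTPRS (r = 0.9998), LHX2 (0.9994) and ECT2 (0.9975), and 51 genes had r over 0.99. For TPM3 they included GABBR1 (0.9884) and TTC33 (0.9797), and 0 genes had r over 0.99. Counts of such genes were 0 for TPM4, 425 for TAGLN2 and 376 for TPM2.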

How the data were processed

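RNA was sequenced from 3 Agrimol B and 3 control HOS libraries. The authors deposited 1 table of FPKM per gene. The submitters' processing notes name FastQC, Trimmomatic, cutadapt, HISAT and the hg38 build, and give neither the counting tool nor its strand setting. Total reads are unknown. Steps in the lowest deposited FPKM values gave depths relative to the first control library. These were 1.00, 1.19 and 1.16 for Agrimol B replicates 1 to 3 and 0.99 to 1.04 in control libraries. In each pair of libraries, 4.98% to 10.8% of the low genes compared held the common ratio used. Table columns NC1 to NC3 were read as the control samples, whose labels write the same letters in another order.

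Genes averaging 1 FPKM or more were tested on log2(FPKM + 1) with limma 3.58.1 (R 4.3.3, variance trend, both groups in 1 fit, no replicate block), with Benjamini-Hochberg adjustment over all 12143 genes and a threshold of 0.05. Differences on this scale understate the change of low genes. The fit was tested on simulated data. The 10 genes and all lists were chosen with earlier results of these data known. From each list the 3 genes with the largest absolute log2 difference past the threshold were named, with any others given for context and chosen after their values were seen. Genes alike are the 3 with the highest r per gene, and those of the genes with the largest fall (CNN1) and the largest rise (TPM3) were named, except 1 that is not reported here. Coordinates are from GENCODE release 29 (GRCh38), promoters from a RefSeq set (GRCh38.p14) without an entry for TAGLN. The 13 alternatives covered the pseudocount, the filter, scaling, the trend, the replicate block and leaving out each library.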

Additional observations from a re-analysis of the deposited data

How the results depend on the processing

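The 8 genes that fell did so under all 13 alternatives, and TPM3 did not pass under any (log2 difference 0.07 to 0.23). TPM4 depended on the libraries and the scaling. Its log2 difference of -0.04 was 0.085 with quantile normalization and ran from -0.46 to 0.20 when 1 library was left out: 0.01 without Agrimol B replicate 1, 0.14 without control replicate 1, 0.20 without control replicate 2, and -0.46, past the threshold, without control replicate 3. The cause was not tested. Of the 6311 genes that passed, 3713 were higher. Median-ratio scaling gave 3084 higher against 3150 lower genes, and quantile normalization 3099 against 3087. Those scalings moved the median log2 difference of all genes to 0.01, against 0.07. The replicate numbers did not pair the libraries (correlations of same-numbered deviations 0.04, -0.01 and -0.01). With the replicate block 5776 genes passed, and 8 of the 10 genes were lower. KRT18 lost its call with quantile normalization and when any library except Agrimol B replicate 1 was left out. Small counts within lists moved in 24 cases over 11 list counts. Without total read numbers, no counting error can be given for a level.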
